A study of Drosophila melanogaster with 2 samples.

Results

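The genes described here encode the proteins of the small (40S) subunit of the cytosolic ribosome of Drosophila melanogaster. They were chosen by symbol alone, as the protein-coding genes named RpS followed by a number, with or without a trailing letter or the ending -like, and 38 of 13945 protein-coding genes met that rule. A gene was counted as bound when the summit of a peak in the thresholded list lay within 1 kb of any of its transcript starts, and 26 of the 38 genes (68.4%) were bound, against 17.0% of all protein-coding genes. Binding was that of MTF-1 tagged with GFP at its C terminus, measured by chromatin immunoprecipitation and sequencing (ChIP-seq) in whole embryos aged 0 to 24 h, with males and females pooled. There was 1 group of 2 biological replicates, numbered 2 and 4, from the same stable transgenic line. The labels name neither the promoter that drives the transgene nor the state of the endogenous MTF-1 gene. No metal treatment was among the samples, so the values describe where signal was found and not a response. No untagged embryos were among them either, so binding of MTF-1-GFP and signal unrelated to it cannot be told apart. In whole embryos, occupancy in more cells and greater occupancy per cell cannot be told apart.

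The small subunit decodes messenger RNA: its head and body form the channel through which the message passes, and its proteins hold the ribosomal RNA in shape around it. Cytosolic ribosomes are needed in every growing cell, and many ribosomal protein genes are Minute loci in Drosophila, at which loss of a single copy delays growth. Their transcripts are known to begin at a pyrimidine-rich initiator, the TCT element, in place of the usual initiator. MTF-1 is a zinc-finger factor known for binding metal response elements (MREs) at metallothionein and other metal-handling genes, and ribosomal protein genes are not among those textbook targets.

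The start regions of 5 bound genes are shown first, because they include strongly bound genes (RpS27, RpS28b and RpS25) and genes with an MRE core near the summit (RpS5a and RpS6). Each run gives 60 bases before the transcript start and 30 from the start on, in the direction of the gene, read from the dm6 genome sequence. Capitals mark letters that match the MRE core (TGCACNC or TGCGCNC on either strand), the DNA replication-related element DRE (TATCGATA), or CTTT on the sense strand with its C within 5 bases of the start, as in the TCT element.
RpS27 (chr3R:25247485-25247574, minus strand): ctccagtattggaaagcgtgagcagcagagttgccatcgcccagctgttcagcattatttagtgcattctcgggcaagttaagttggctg
RpS28b (chrX:9554563-9554652, plus strand): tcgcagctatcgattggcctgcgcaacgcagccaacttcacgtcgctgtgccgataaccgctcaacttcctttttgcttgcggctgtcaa
RpS25 (chr3R:11216258-11216347, minus strand): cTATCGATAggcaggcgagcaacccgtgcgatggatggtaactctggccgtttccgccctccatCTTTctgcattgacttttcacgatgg
RpS5a (chrX:17148235-17148324, minus strand): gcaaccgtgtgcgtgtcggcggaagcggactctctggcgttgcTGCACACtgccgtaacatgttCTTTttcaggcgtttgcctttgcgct
RpS6 (chrX:7901302-7901391, minus strand): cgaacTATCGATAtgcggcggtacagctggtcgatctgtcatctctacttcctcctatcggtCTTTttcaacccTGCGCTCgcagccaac

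RpS27 and RpS28b, of ranks 23 and 76, held none of these letters in the runs shown. RpS25 held a DRE from 59 to 52 bp before the start, and RpS5a an MRE core from 17 to 11 bp before it. RpS6 held a DRE before its start and an MRE core from 14 to 20 bp after it. A match is a match of letters and was not tested as a binding site.

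The first question was how strongly the bound genes ranked. Ranks follow the signal value that the authors' peak caller gave to each region, and rank 1 is the strongest. The thresholded list held 3587 peaks. It consisted of the 3587 strongest regions of the list called on the pooled replicates, so a rank in it is also the pooled rank. The 26 bound genes had 26 different peaks, with a median rank of 279.0 against 1572 for all 2368 bound protein-coding genes. This median rested on which library set the ranks: it was 158.5 among the 3587 strongest regions of replicate 2 (without replicate 4) and 577.0 among those of replicate 4 (without replicate 2). In all, 16 of the 38 genes (42.1%) had a peak of rank 500 or better, against 3.14% of protein-coding genes. The median signal of the 26 peaks was 402, the median of the list was 154, and 24 of the 26 lay above it. The peaks were also narrow: 20 of the 26 were narrower than the median width of 344 bp, against 26.3% of all thresholded peaks.

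The strongest peak belonged to RpS27, a zinc-finger protein of the subunit's body. It covered 3R 25247356 to 25247662 with a signal of 1145, which was 7.46 times the list's median and ranked 23. The region over it ranked 6 in replicate 2 (signal 661) and 52 in replicate 4 (signal 500). RpS4, a protein of the body, followed at rank 61 (signal 756, 3L 13041643 to 13041943). Its regions ranked 18 in replicate 2 and 327 in replicate 4. Both genes thus stood among the strongest regions in each replicate, with the higher rank in replicate 2.

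Proteins of the head filled the next places. RpS28b, at the mRNA exit, had the peak of rank 76 (signal 677, X 9554464 to 9554726), which ranked 40 in replicate 2 and 241 in replicate 4. RpS10b, on the head near the mRNA entry, had the peak of rank 94 (signal 631, X 19597911 to 19598167), with ranks of 37 and 291. RpS25, needed in yeast and human cells for initiation at some viral internal entry sites, had the peak of rank 147 (signal 527, 3R 11216224 to 11216445), with almost equal ranks of 141 and 139 in the replicates. RpS18, which bridges the head to the large subunit, followed at rank 149 (signal 523, 2R 20263862 to 20264098), with ranks of 112 and 299. RpS19a, whose human counterpart is needed for subunit assembly, followed at rank 192 (signal 471, X 16637765 to 16637987), with ranks of 105 and 504. The eighth place went to RpS21 of the body, at rank 199 (signal 465, 2L 2855978 to 2856191), with ranks of 66 and 639. Of these 8 genes, RpS25 alone did not rank better in replicate 2.

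A further 11 genes had ranks from 216 to 761. They included RpS12 (rank 216, signal 449), which in Drosophila is known for its part in cell competition, and RpS23 (rank 221, signal 442), a protein of the decoding centre. RpS3A ranked 253, RpS7 362 and RpS6 548. RpS6, the target of the growth-regulated S6 kinase, had a signal of 286. RpS16, RpS5a, RpS15Aa, RpS15 and RpS29 fell in the same range. The weakest 7 ranked from 1135 to 3527. Among these, RpS2 (rank 3527, signal 105) lay below the list's median signal, at 0.685 of it. RpS2, which lines the mRNA entry, stood near the list's end and had no region among the 3587 strongest of either replicate: the regions over its peak ranked 12412 in replicate 2, which held a stronger one of rank 5338 within 1 kb, and 3987 in replicate 4. The genes were also grouped by place in the subunit, a grouping chosen after the values were seen. Of 19 genes for head proteins 13 were bound (median rank 219.0), and of 19 for the body and platform 13 (median rank 362.0). The head count includes RpS19b and RpS28a, the only bound genes whose strongest summit lay more than 50 bp from a start.

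**Figure D1:**
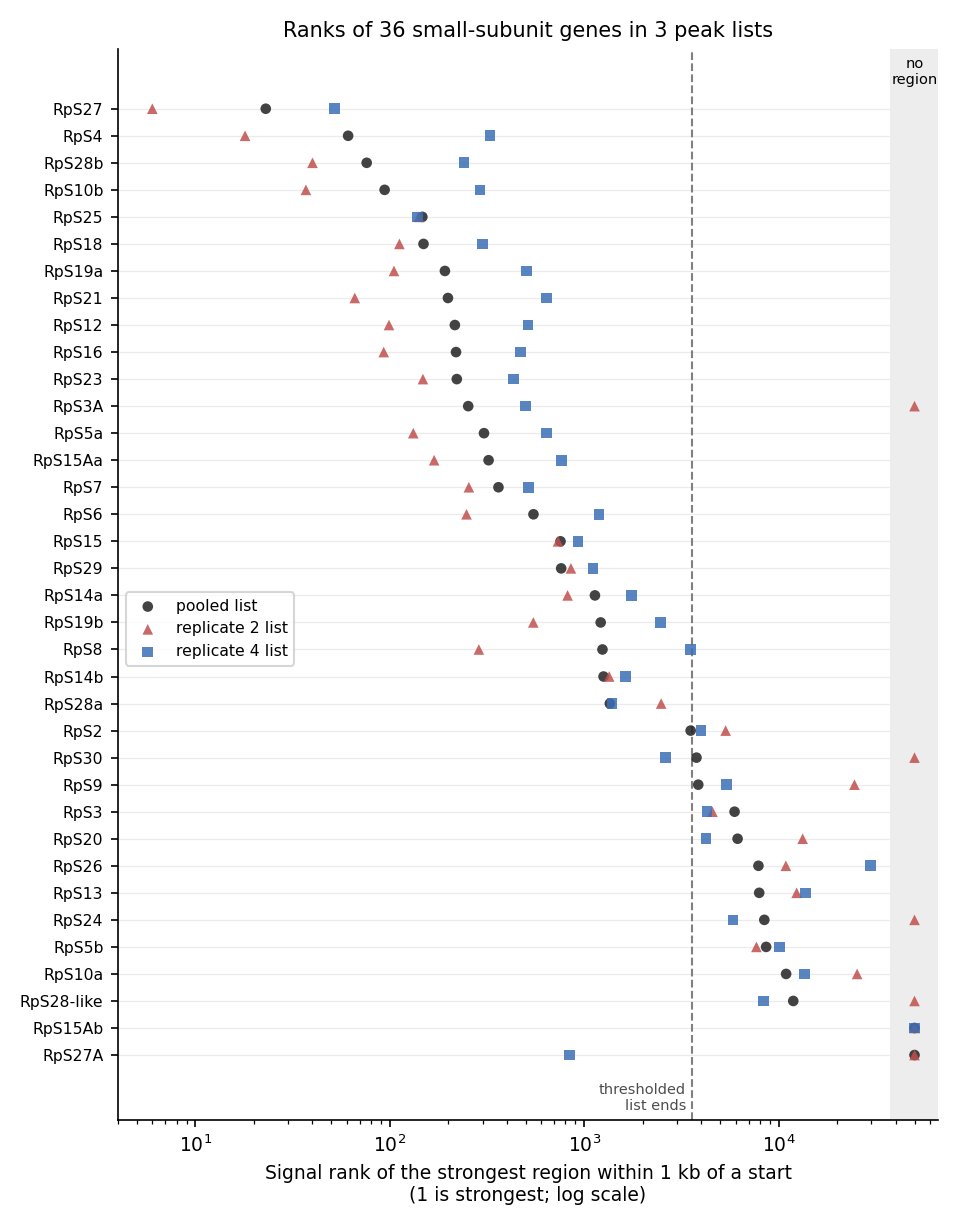
Signal rank of the strongest region within 1 kb of a start for 36 of the 38 small-subunit genes, in the pooled list (circles), the replicate 2 list (triangles) and the replicate 4 list (squares), on a log axis where 1 is strongest; the dashed line marks rank 3587, where the thresholded list ends, and the grey band holds genes with no region. RpS27 leads at rank 23, and triangles lie left of squares for most bound genes.

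The second question was where the peaks sat. A summit is the base of highest signal in a peak, and an offset below 0 is upstream of the start. In 24 of the 38 genes (63.2%) the strongest summit lay within 50 bp of a start of the gene, against 4.04% of protein-coding genes. Taken over bound genes only, this was 24 of 26 (92.3%), against 23.8% of all bound protein-coding genes. The median distance over the 26 was 12.5 bp, against 153 bp. Among the 24, offsets ran from −49 bp at RpS14b to 30 bp at RpS6, with 14 summits upstream and 10 downstream, and 17 lay within 20 bp. RpS4 and RpS7 had the summit 2 bp downstream of a start and RpS18 had it 2 bp upstream. In the annotation, 16 of the 24 summits lay in an untranslated part of an exon and 8 outside the gene, and 0 lay in an intron or coding exon.

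**Figure D2:**
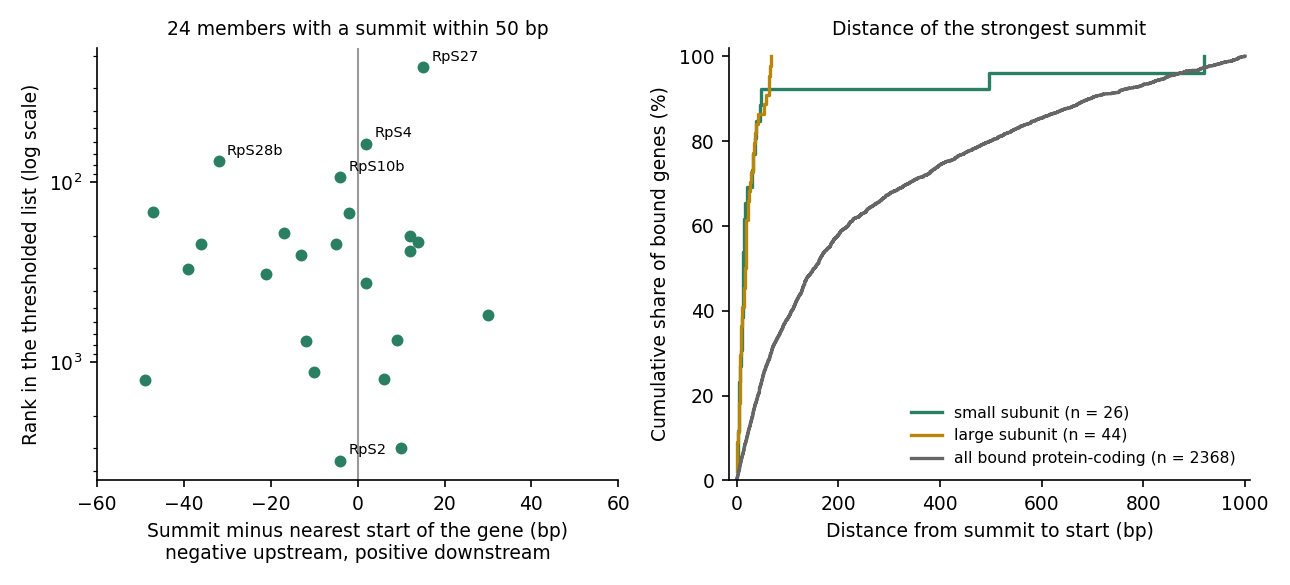
Left, signed distance in bp from the summit to the nearest start of the gene (negative is upstream) against rank in the thresholded list (log axis, strongest at the top) for the 24 genes with a summit within 50 bp; right, cumulative share in % of bound genes by distance in bp for the small subunit (n = 26), the large subunit (n = 44) and all bound protein-coding genes (n = 2368). The median distance is 12.5 bp for the small subunit and 153 bp for all.

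RpS19b and RpS28a were the 2 bound genes with summits farther out, and both peaks lay nearer to another gene. The RpS19b summit (rank 1215, signal 188) was 920 bp upstream of its start and 538 bp from a start of CG5854. The RpS28a summit (rank 1354, signal 177) lay 497 bp downstream of its start, beyond the end of this short gene, and 70 bp from a start of Mgat2, which encodes an enzyme of N-glycan synthesis. Counting by the nearest start of any gene left 23 of the 26 bound; besides these 2, it left out RpS6, whose summit lay 1 bp from the annotated start of CR33222 and 30 bp from its own. Around the 1 kb limit, the last gene inside was RpS19b at 920 bp and the first outside was RpS15Ab at 1761 bp, followed by RpS3 at 1786 bp.

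In 17 of the 26 genes (65.4%) the peak also lay within 1 kb of a start of another protein-coding gene, as it did for 54.1% of all bound protein-coding genes. RpS12 had a second peak at rank 3530, 22 bp from a start of Adk2, and RpS28b had one at rank 1336, 99 bp from a start of l(1)G0320. A second peak of RpS23, at rank 906, lay 452 bp upstream of RpS23, whose start was the nearest. The RpS6 peak was also within 1 kb of bys, which encodes a factor of 40S maturation. RpS29 lies beside the metallothionein gene MtnA, and its summit (rank 761, signal 242), 12 bp upstream of its own start, was 6428 bp from that of MtnA.

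The third question was how far the replicates shared these regions. A replicate list holds candidates and background, 30000 regions each, so presence in it is a weak criterion. A region lay within 1 kb of a start in replicate 2 for 32 genes (84.2%, against 52.9% of protein-coding genes), in replicate 4 for 37 (97.4%, against 56.7%) and in both for 32 (84.2%, against 41.2%). In the 3587 strongest regions of replicate 2, 24 genes had one (63.2%, against 16.4%), and in those of replicate 4, 26 genes (68.4%, against 16.8%). The replicates' summits lay a median of 6 bp (replicate 2) and 3 bp (replicate 4) from the pooled summit, against 17 and 10 bp over all bound protein-coding genes. They lay within 20 bp at 18 of 25 genes in replicate 2 and at 22 of 26 genes in replicate 4. The pooled summit came from the same libraries, so part of this closeness is built in. The replicates' summits were not measured against each other.

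The ranks were not alike. Over the 25 bound genes present in both lists, the median rank was 169.0 in replicate 2 and 639.0 in replicate 4, and 22 genes (88.0%) ranked better in replicate 2. The exceptions were RpS25, RpS28a and RpS2. Large-subunit genes showed medians of 168.0 and 392.0, with 33 of 43 (76.7%) better in replicate 2, whereas 47.9% of all bound protein-coding genes in both lists ranked better there. The order of the 25 genes was similar in the replicates, with a Spearman correlation of 0.82 and a Pearson correlation of log10 ranks of 0.82. RpS3A, with no region in replicate 2, is left out, and bound genes were picked by the pooled signal of these replicates. The 2 correlations were 0.70 and 0.74 for bound large-subunit genes, and 0.51 and 0.65 for all bound protein-coding genes. These are descriptions over genes that share libraries, not independent points. Base composition differed between the lists: the median G+C content in 101 bp at the summit was 43.6% for the 3587 strongest regions of replicate 2 and 35.6% for those of replicate 4. At the 26 summits of small-subunit genes it was 49.0%, with a range from 37.6% at RpS12 to 58.4% at RpS5a. That is near the 48.5% of the 620 thresholded peaks with a summit within 50 bp of any protein-coding start, and above the 39.6% of all thresholded peaks. Whether composition plays a part in the rank difference was not tested.

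**Figure D3:**
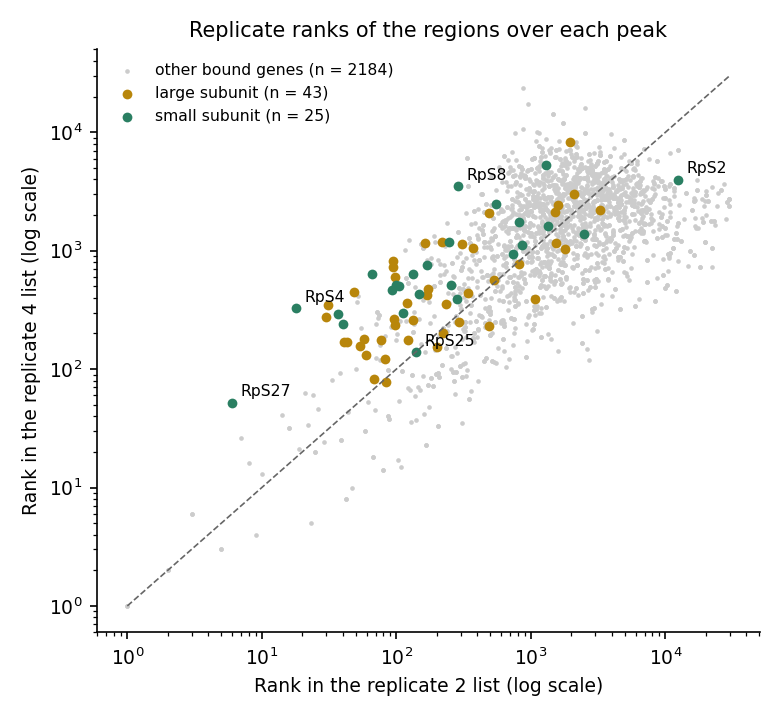
Rank in the replicate 2 list against rank in the replicate 4 list (both log axes) of the region over each thresholded peak, for bound small-subunit genes (n = 25), bound large-subunit genes (n = 43) and other bound genes in grey; the dashed line marks equal ranks. Of the small-subunit genes, 22 lie above the line, that is, they rank better in replicate 2.

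RpS3A, a protein of the platform near the mRNA exit and the only member on chromosome 4, was bound at rank 253 (signal 422) but had no region in replicate 2. Its region in replicate 4 ranked 499 (signal 185). Chromosome 4 held 16 regions in the replicate 2 list and 193 in that of replicate 4. By chromosome, all 8 members on X were bound (14.2% of protein-coding genes there), as were 3 of 4 on 3L (18.5%), 5 of 7 on 2R (17.1%), 7 of 12 on 3R (17.9%), 2 of 6 on 2L (16.7%) and the 1 on chromosome 4 (4 of 80 protein-coding genes). Of the large-subunit genes, 5 of 5 on X, 9 of 10 on 3L, 12 of 13 on 2R, 8 of 11 on 3R and 10 of 13 on 2L were bound.

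The fourth question concerned the 12 genes with no thresholded summit within 1 kb. In the pooled list 36 of the 38 genes (94.7%) had a region within 1 kb, against 55.8% of protein-coding genes. Bound genes are in these counts in advance, since the pooled list holds every thresholded peak. Of the 12 unbound genes, 10 had a pooled region. Among all 13945 protein-coding genes 7780 had one, of which 2368 were bound and 5412 were not. For the 10 unbound small-subunit genes the ranks ran from 3779 to 11890 with a median of 7907. The pooled summit lay within 100 bp of a start in 8 of these 10, against 34.8% of the 5412 protein-coding genes with a pooled region but no thresholded summit. Over bound and unbound together, 32 of 36 did, against 35.8%.

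Those nearest to the end of the thresholded list were RpS30 and RpS9. RpS30, which in mammals is made as a fusion with a ubiquitin-like protein, had pooled rank 3779 at an offset of −13 bp, no region in replicate 2 and rank 2609 in replicate 4. RpS9, near the mRNA entry, had pooled rank 3859 at 35 bp and ranks of 24550 and 5390. RpS3, which lines the mRNA entry channel, had pooled rank 5933 at 47 bp and ranks of 4566 and 4278, so that neither replicate placed it among its 3587 strongest regions. Its start region, shown because it holds both CTTT at the start and an MRE core after it without a thresholded peak, reads as follows in dm6.
RpS3 (chr3R:23358752-23358841, plus strand): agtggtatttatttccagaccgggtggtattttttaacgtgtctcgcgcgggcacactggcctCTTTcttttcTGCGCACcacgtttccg

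RpS20, on the head, had pooled rank 6149 at −228 bp (ranks of 13291 and 4222 in replicates 2 and 4). RpS26, at the mRNA exit, had pooled rank 7871 at 21 bp, and its ranks of 10893 and 29633 differed widely. RpS13 had pooled rank 7943 at −85 bp (ranks of 12378 and 13785), and RpS24 had pooled rank 8440 at −54 bp, with no region in replicate 2 and rank 5822 in replicate 4. RpS27A, made as a fusion with ubiquitin, was the most uneven: it had no region in the pooled list or in replicate 2, while replicate 4 held a region of rank 840 (signal 143) with its summit at −52 bp. Of the 840 strongest regions of replicate 4, 8 overlapped no pooled region, and this was 1 of them.

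The remaining unbound genes belong to families of paralogues, which allow promoters of like proteins to be set side by side. There were 6 families with 13 genes, of which 9 were bound, 7 with a summit within 50 bp; of the 25 single-copy genes, 17 were bound and all 17 had the summit within 50 bp. Near-identical copies can lose reads in alignment, and how such reads were treated is not given in the sources used here. RpS14a and RpS14b, platform proteins encoded in tandem on X, have identical proteins of 151 residues. Each had a peak of its own, at rank 1135 (signal 196, −10 bp) and rank 1257 (signal 184, −49 bp), with summits 1117 bp apart and replicate ranks of 821 and 1754 for RpS14a and 1344 and 1631 for RpS14b. Their promoters, 250 bp before to 50 bp after the start, were identical at 165 of 330 aligned positions. Those of the other pairs were identical at 42.9% to 47.7% of positions, whatever the identity of their proteins. No share for unrelated promoters is given beside these, so they do not show whether paralogues' promoters are more alike than others.

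In each of the other 5 families, 1 member had a summit within 50 bp of its start. RpS15Aa and RpS15Ab share 97.7% of protein residues. RpS15Aa was bound at rank 322 (signal 375, −21 bp), whereas RpS15Ab, a copy with 1 exon, had no region within 1 kb in any list. RpS5a and RpS5b, head proteins at the mRNA exit, share 78.5%. RpS5a was bound at rank 305 (signal 382, −39 bp), whereas RpS5b had pooled rank 8622 at 66 bp (ranks of 7686 and 10136). RpS10b and RpS10a share 73.6%. RpS10b had rank 94, whereas RpS10a, also with 1 exon, had pooled rank 10926 at −26 bp (ranks of 25338 and 13568). RpS19a had rank 192 with its summit 17 bp upstream of its start, whereas RpS19b, with 65.4% identity, counted only through the summit at 920 bp. RpS28b had rank 76, whereas RpS28a, with 81.5% identity and 1 exon, counted only through the summit near Mgat2. RpS28-like, with 38.2% identity to RpS28b, was unbound (pooled rank 11890 at 706 bp). RpS5b, RpS10a, RpS19b and RpS28a are known in Drosophila for expression enriched in the gonads, and their partners for general expression. The start regions of RpS14a, RpS14b and RpS5b, to be set beside that of RpS5a above, show promoters of paralogues with and without a peak (dm6, capitals as above).
RpS14a (chrX:7933682-7933771, plus strand): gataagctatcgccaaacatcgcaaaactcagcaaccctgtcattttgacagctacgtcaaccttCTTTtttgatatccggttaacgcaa
RpS14b (chrX:7934838-7934927, plus strand): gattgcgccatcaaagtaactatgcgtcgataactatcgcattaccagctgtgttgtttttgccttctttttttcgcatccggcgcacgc
RpS5b (chr3R:14901534-14901623, minus strand): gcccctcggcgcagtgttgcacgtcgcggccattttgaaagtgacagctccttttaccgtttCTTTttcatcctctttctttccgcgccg

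RpS5b carried CTTT at the start, as RpS5a did, and so did RpS14a, with its C 5 bases after the start. In the RpS14b run the same letters begin just beyond the limit of 5 bases, so RpS14b was not counted. Across the set, CTTT within 5 bp of the start was found in 17 of 38 promoters (44.7%), against 5.72% of 13944 protein-coding promoters, in 12 of 26 bound genes (46.2%) and in 5 of 12 unbound genes (41.7%). The letters of the initiator thus occurred at similar shares in bound and unbound genes, as scored at the start of the canonical transcript. The start nearest the summit can be another one. There, RpS4 and RpS29, which were not counted, held CTTT, and RpS21, which was counted, did not.

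The MRE core was found at a share near that of all promoters. In the window from 250 bp before to 50 bp after the start, 7 of the 38 promoters held one (18.4%), against 18.9% of all, with 6 of 26 bound (23.1%) and 1 of 12 unbound (8.33%). Within 50 bp of the summit, 3 of the 26 bound genes held one (11.5%), against 11.4% of all thresholded peaks and 15.8% of the 620 peaks with a summit within 50 bp of a protein-coding start. These were RpS5a (TGCACAC, 25 bp from the summit), RpS6 (TGCGCTC at 13 bp and TGCACGC at 35 bp) and RpS15, a head protein (TGCGCAC at 10 bp, 2R 16571208 to 16571214). The RpS15 peak ranked 755 (signal 243), and none of the 8 strongest members had a core in that window. DRE was found in 13 of 38 promoters (34.2%, against 8.94% of all) and the site of the zinc-finger factor M1BP (GGTCACAC) in 4 (10.5%, against 7.54%). In the 101 bp windows at the summits, 2 of 26 held a DRE (7.69%), those of RpS25 and RpS29, against 1.56% of all thresholded peaks and 5.16% of peaks within 50 bp of a protein-coding start. The M1BP site was in 2 of 26 (7.69%), RpS15 among them, against 1.37% and 6.13%. TATAAA, the TATA element, was found in 19 of 38 promoters (against 45.3% of all). These were 16 of 26 bound genes (61.5%) and 3 of 12 unbound genes (25.0%), a difference that was not tested. TATAAA was in 1 summit window, that of RpS25 (3.85%, against 15.0% of all peaks and 7.74% of peaks near a start). GAGAG, the GAGA element, was found in 4 promoters, all of bound genes (10.5%, against 30.2%). Of the summit windows, 2 held it (7.69%, against 15.8% and 18.2%). All letters but CTTT were searched on both strands, and 19 of the 26 summit windows held none of the 5 elements.

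**Figure D4:**
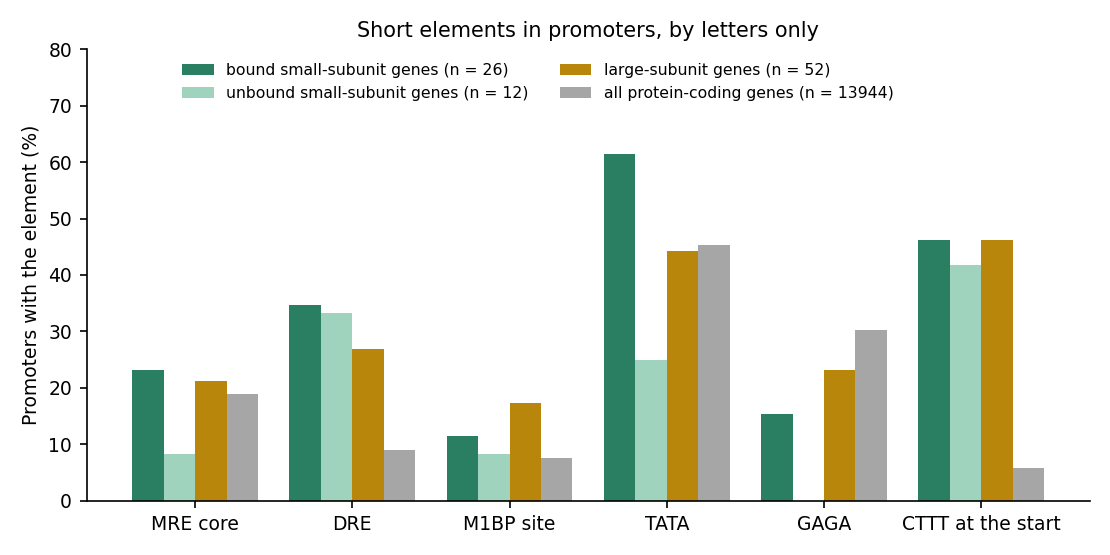
Share in % of promoters (250 bp before to 50 bp after the start; for CTTT, within 5 bp of the start) that hold the letters of each element, for bound (n = 26) and unbound (n = 12) small-subunit genes, large-subunit genes (n = 52) and all protein-coding genes (n = 13944). DRE and CTTT are more frequent in ribosomal protein promoters than in all promoters, whether bound or not, while the MRE core is found at 23.1% of bound genes and 18.9% of all.

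Many of these genes carry small nucleolar RNAs, which guide modification of ribosomal RNA, inside their transcribed regions. This was so for 12 of the 38 (31.6%, against 0.602% of protein-coding genes), with 14 such RNAs in RpS5a, 7 in RpS7 and 5 in RpS16. Of the bound genes 10 of 26 were hosts, and of the unbound 2 of 12.

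Genes of related function were set beside them. Both other proteins of the small subunit, which the symbol rule misses, were bound: Rack1, a signalling scaffold on the head, at rank 126 (signal 566, 6 bp from the start) and sta, at rank 506 (signal 300, 10 bp). Of 52 large-subunit genes 44 were bound (84.6%), with a median rank of 266.0 and 38 of 44 summits within 50 bp (86.4%). These genes were also chosen by symbol, by a rule that takes in RpLP0-like (rank 2090) and misses RpL37-1 (rank 718). The share bound was higher than for the small subunit, and the difference was not tested. The large subunit had 33 summits upstream and 9 downstream, the small subunit 15 and 11. Of 26 genes for the mitochondrial small subunit 6 were bound (23.1%, median rank 1108), with 1 summit within 50 bp. Their best ranks were 15, at mRpS10 with an offset of −141 bp, and 29, at mRpS23 with an offset of −381 bp. The mRpS10 peak thus ranked ahead of every member's. Of 24 initiation factors that work on the small subunit 6 were bound (25.0%, median rank 1526). The best rank was 87, at eIF1, which guards start codon choice, with an offset of −357 bp. The same peak had an offset of −24 bp at the large-subunit gene RpL28, so it lay nearer to the RpL28 start. Among 4 factors known at ribosomal protein promoters, Dref was bound at rank 154, Trf2 at 1298 and M1BP at 2261, while Myc was unbound. The shares for the mitochondrial subunit and the initiation factors lay nearer to the 17.0% of all protein-coding genes than to that of the cytosolic small subunit.

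**Figure D5:**
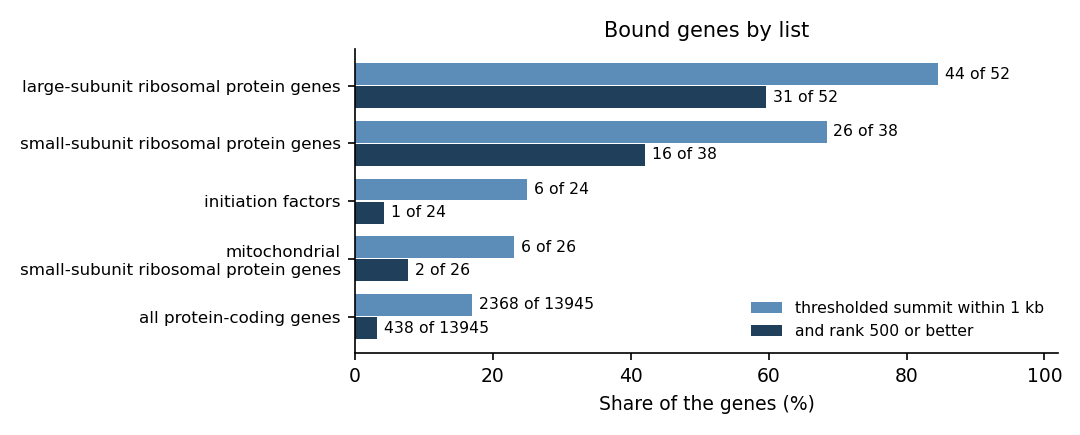
Share in % of the genes of each list with a thresholded summit within 1 kb of a start (light bars) and with a peak of rank 500 or better (dark bars), with counts at the bar ends. The small subunit has 26 of 38 bound and 16 of 38 at rank 500 or better, against 2368 and 438 of 13945 protein-coding genes.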

How the data were processed

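ChIP-seq peak lists of MTF-1-GFP from 1 group of 2 embryo samples were used. Per the deposited read-me, the authors made a list of peaks and background for each replicate and for the pooled replicates, and derived the thresholded list from these by the irreproducible discovery rate. Aligner, peak caller and threshold were not given in the sources used. One label describes both samples as input, whereas the antibody and assay labels name an immunoprecipitated factor; they were treated as immunoprecipitates, since the read-me names a further shared source file, taken to be the control and not analysed here.

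Each list is on dm6 and gives the authors' signal per region, of unstated scale, and −log10 of the authors' q-value, from 0.162 to 3.80. Signal was used only to rank and describe regions within 1 list. Read depth is unknown, signal of a pooled peak has no SD, and no interval is given. The labels do not say that the replicates came from separate crosses.

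Gene models were those of Ensembl release 115 (BDGP6.54, the assembly of dm6), without transposable elements, on 6 chromosome arms. Coordinates are 1-based. Where several summits lay within 1 kb, the strongest was described, at its nearest start. Promoter and motif values used the canonical transcript. Proteins and promoters were aligned globally with Biopython 1.88, under Python 3.11.15 with numpy 2.4.6 and pandas 2.3.3, and the calculations were tested on simulated peaks. Members, lists and motifs were chosen with earlier results of these data known, so counts stand beside those of all protein-coding genes and no test was run. Named in full were the 8 members of best rank, all unbound members, members of paralogue families, those with an MRE core near the summit and those around the 1 kb limit. Counts cover all 38 members, of which 2 are not reported individually here. Alternatives covered distance, starts used, list, replicate and window.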

Additional observations from a re-analysis of the deposited data

How the results depend on the processing

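The count of 26 bound genes stayed between 23 and 29 under every alternative tried: 24 in the stronger part of the list (1793 peaks; 9.54% of protein-coding genes), 25 within 500 bp (14.3%), 29 within 5000 bp (33.3%), 23 by nearest start (12.5%), 26 with canonical starts (15.0%) and 26 with any base of the region (17.6%). Ranking by 1 replicate alone gave 24 to 26 bound genes, a median rank of 158.5 (replicate 2 list) to 577.0 (replicate 4 list), a median distance of 13.0 to 14.5 bp and 2 to 3 genes with an MRE core near the summit. The median distance of 12.5 bp became 17.0 bp within 5000 bp and 22.5 bp with canonical starts only. The 3 genes with a core became 5 within 5000 bp, 4 with 100 bp to each side and 6 in the promoter window. The 32 genes with a region in both replicate lists (41.2% of protein-coding genes) became 30 within 500 bp (32.2%) and 37 within 5000 bp (76.6%). The count was 27 by nearest start (31.5%) and 32 with canonical starts (38.4%). It was 29 in the stronger part of each list (29.3%) and 23 among each list's 3587 strongest (11.4%). Of 40 alternatives, 34 moved a count by 1.5 times or less, or a median by less than the SD between replicates. The other 6 moved it by more. That SD (296 for the rank, 1.06 bp for the distance) came from the same single-replicate values that it was used to judge. Counts of 26 and 32 among 38 genes could not rise by more than 1.5 times. The tally of 34 is thus not a measure of robustness. No paired analysis was possible because there was 1 group with no contrast. Depth is unknown, so a gene without a peak may be unbound or below detection.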
